A study of Mus musculus with 18 samples.

Results

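This account follows 8 genes through which animal cells control their volume by moving salt across the plasma membrane: Slc12a2, Slc12a4, Slc12a7, Wnk1, Stk39, Oxsr1, Lrrc8a and Sgk1. They were chosen by name, with earlier results of these data known. Their counts and medians beside those of all genes are therefore a description. Each was read from a probe set annotated to that symbol alone, taking the one with the highest mean level where there was more than 1. Only Wnk1 had 2 such probe sets. All 8 passed the filter on dim genes, so they are 8 of 15711 genes tested, out of 19937 genes with a probe set of their own.

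Total RNA of mouse embryonic fibroblasts of strain 129sv/ev was hybridised to 18 Affymetrix arrays, in 6 groups of 3 that carry the numbers 1, 2 and 4. The line called NFAT5 wild-type 5.4 (WT) was grown in both media, isotonic and hypertonic, each with and without a pretreatment of 1 h with 100 nM Torin1, an inhibitor of the kinase mTOR. The line called NFAT5 knock-out 5.1 (KO), labelled as lacking the transcription factor that switches on osmolyte genes in hypertonic medium, was kept in either medium without Torin1. Titles carry 300 for the isotonic and 500 for the hypertonic medium, without a unit, and the sources used here give no time of exposure. Each genotype is a single line, so genotype and line cannot be told apart, and nothing says whether the arrays of a group came from separate cultures, so a p-value here reflects the spread among these arrays alone, which may be technical.

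A shrinking cell regains volume by taking up sodium, potassium and chloride, and a swollen one loses potassium and chloride. WNK kinases such as Wnk1 phosphorylate the kinases SPAK (Stk39) and OSR1 (Oxsr1), which in turn switch on the importer NKCC1 (Slc12a2) and switch off the potassium-chloride exporters KCC1 (Slc12a4) and KCC4 (Slc12a7). Lrrc8a encodes the subunit that the volume-regulated anion channel cannot do without, and Sgk1 a kinase that acts on ion channels and transporters downstream of mTORC2. Much of this control works by phosphorylation, which the arrays do not measure.

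Levels are log2 RMA signals, differences are log2 changes with ± the standard error of the limma fit (n = 3 arrays in each group), and a gene was called at a Benjamini-Hochberg adjusted p below 0.05 over all genes tested. Array medians ran from 6.96 to 7.13. Where arrays of compared groups are said to overlap or not, this describes the members' values. The share of all genes that separate in the same way was not counted. For isotonic KO array 1 the title says KO but the genotype label says wild-type, and the title was followed. The fibroblast marker Thy1 ran from 10.64 to 11.05 on the arrays titled isotonic KO, this one included, and from 6.69 to 7.22 on the WT arrays. Lum ran from 6.23 to 7.68 and from 4.14 to 4.65. The alternative that counts this array as WT therefore puts an array with KO-like levels of both genes into the WT group. Of 10 fibroblast markers 9 were above 5.86, the filter level, in every WT group and 10 in both KO groups, with Lum below it in WT cells, and the mean over the list was 10.25 on the isotonic WT and 11.73 on the isotonic KO arrays. Summed over the list, the fibroblast markers ran from 101.8 to 103.3 per array in the WT groups and from 114.5 to 118.0 in the KO groups. Of 6 macrophage markers Cd68 and Csf1r had group means above 5.86 in every group (7.93 to 8.43 and 7.30 to 8.81), Ptprc and Adgre1 below it in every group, and Itgam and Lyz2 in some. Of 5 endothelial markers Cdh5 lay above that level and Kdr and Emcn below it in every group, while Tek was at 5.82 to 6.10 in the WT groups and at 7.87 and 8.47 in the KO groups. The 5 endothelial markers summed to 27.6 to 29.5 in WT and 29.2 to 32.2 in KO arrays, and the 5 adipocyte markers to 30.4 to 32.3 and 32.6 to 36.5, with Lep below the filter level throughout. The 5 epithelial markers summed to 32.04 to 33.25 in WT and 33.57 to 35.03 in KO arrays, and the sums of macrophage, muscle and neural markers overlapped between the lines. In hypertonic medium Itgam rose by 0.83 ± 0.22 in WT and 1.18 ± 0.22 in KO cells (limma adjusted p = 0.031 and 0.000806) and the adipocyte marker Fabp4 by 0.83 ± 0.24 and 0.80 ± 0.24 (0.0439 and 0.0186). The isotonic means of Itgam lay below the filter level, at 5.76 in WT and 5.83 in KO cells. Itgam was therefore tested only because of its hypertonic groups, and its calls are no independent support for a rise. Csf1r rose in WT cells with Torin1 (1.04 ± 0.24, limma adjusted p = 0.0284), and in KO cells Pecam1 was called as higher and Pdgfrb and Cdh1 as lower. The part of these marker differences in the results between lines and media was not tested. Nfat5 itself differed in the KO line by -0.26 under isotonic and -0.44 under hypertonic conditions, which did not pass (limma adjusted p = 0.367 and 0.0503), although the hypertonic difference passed with the array number as a block (limma adjusted p = 0.00591). Where its probes lie relative to the deleted part is not known here, so this reading does not check the genotype. Slc5a3, the myo-inositol transporter gene induced by NFAT5, rose by 2.86 ± 0.29 in the WT line in hypertonic medium (limma adjusted p = 0.000103) and fell by 1.52 ± 0.29 in arrays titled hypertonic KO (limma adjusted p = 0.0009). The arrays titled isotonic KO held Slc5a3 at 11.67, 11.75 and 11.09, as high as hypertonic WT cells at 11.76, 11.63 and 10.88. All directions within the KO line, the differences between the lines in each medium and the differences of their responses therefore rest on the media named in the titles, and whether those are right was not tested. If the media of the KO groups were exchanged, every change within the KO line would turn its sign. Differences of group means between the lines would then be -1.52 in isotonic and -0.88 in hypertonic medium for Slc12a2, -1.13 and -0.35 for Stk39, and -0.42 and -1.97 for Sgk1, so these 3 would stay lower in the KO line. Lrrc8a in hypertonic medium would differ by -0.20 in place of 0.45. Oxsr1 would differ between the lines by 0.37 in isotonic and -0.59 in hypertonic medium. The KO response minus the WT response would turn to 0.78 for Stk39, -0.82 for Lrrc8a, -0.96 for Oxsr1 and -1.55 for Sgk1. For Slc12a2, Slc12a7, Wnk1 and Slc12a4 it would be 0.64, -0.76, -0.31 and 0.10. These exchanged values are a description without a test, added after seeing the data.

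**Figure D1:**
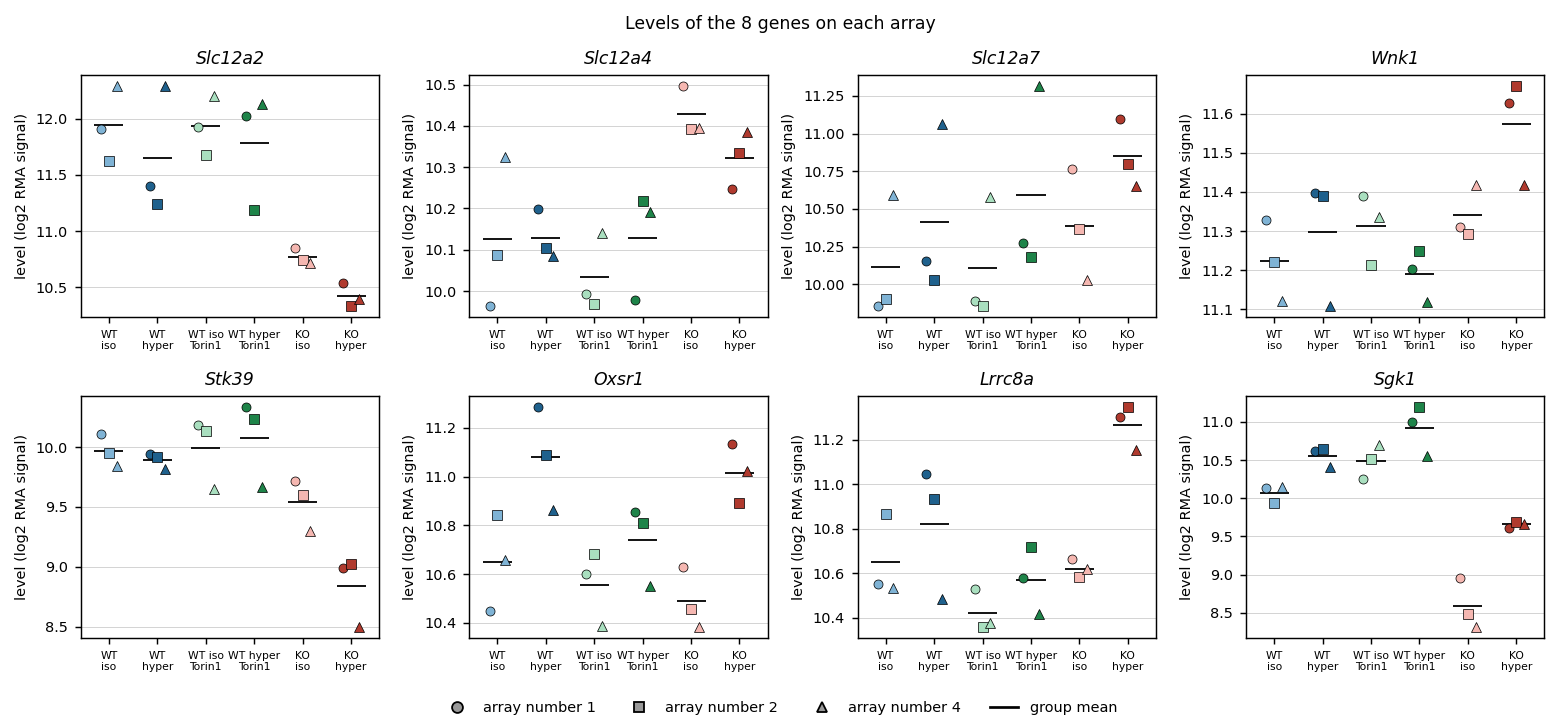
Levels of the 8 genes (log2 RMA signal, 1 panel per gene, each with its own axis) on the 18 arrays by group, with a bar at the group mean and a marker shape for the array number. Slc12a2, Stk39 and Sgk1 sit lower in the KO line, the hypertonic arrays of Sgk1 and Oxsr1 lie above the isotonic ones in both lines without Torin1 and overlap with them in WT cells with Torin1, and arrays of number 4 stand high for Slc12a7 in every WT group.

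Sgk1, the kinase gene, was lower in the KO line in both media, and without Torin1 its hypertonic arrays lay above its isotonic ones in both lines. Its level in arrays 1, 2 and 4 was 10.14, 9.94 and 10.14 on the isotonic WT arrays and 10.62, 10.65 and 10.41 on the hypertonic WT arrays. The KO line had 8.95, 8.49 and 8.31 on the isotonic and 9.62, 9.68 and 9.67 on the hypertonic arrays. The media did not overlap within either line, and all 6 KO arrays lay below every WT array. Sgk1 rose in the KO line by 1.07 ± 0.17 in hypertonic medium (limma adjusted p = 0.000246). In WT cells the difference of 0.48 ± 0.17 missed the threshold (limma adjusted p = 0.0997, and 0.0721 with the array number as a block), and it passed with all arrays of number 4 left out (0.59, limma adjusted p = 0.0138). The lines' responses differed by 0.59 ± 0.24, which did not pass (limma adjusted p = 0.159, and 0.125 with the block). That difference passed only after centring each array on its median (0.75, limma adjusted p = 0.0496). The lines differed by -1.49 ± 0.17 in isotonic medium (limma adjusted p = 1.52e-05) and by -0.90 ± 0.17 in hypertonic medium (0.000912). The isotonic difference was not past the threshold when isotonic KO array 1 was taken as WT, as its genotype label has it (-1.39, limma adjusted p = 0.128).

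Torin1 inhibits mTOR, the kinase of the mTORC2 complex that activates SGK1, and Sgk1 levels with it were 10.25, 10.52 and 10.70 on the isotonic and 11.00, 11.20 and 10.56 on the hypertonic WT arrays. The isotonic arrays with Torin1 all lay above those without, while in hypertonic medium the groups overlapped through array 4. Neither difference, 0.42 ± 0.17 in isotonic and 0.36 ± 0.17 in hypertonic medium, passed (limma adjusted p = 1 and 0.429). With Torin1 present the hypertonic difference was 0.42 ± 0.17 (limma adjusted p = 0.216), and it passed with all arrays of number 4 left out (0.71, limma adjusted p = 0.00951). From the highest mean to the lowest, Sgk1 stood in the order hypertonic WT with Torin1, hypertonic WT, isotonic WT with Torin1, isotonic WT, hypertonic KO and isotonic KO, and the first 3 of these groups overlapped with their neighbours.

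Oxsr1 and Stk39 encode closely related kinases that receive the WNK signal, and in the KO line their transcripts moved in opposite directions in hypertonic medium. Oxsr1 read 10.45, 10.84 and 10.66 on the isotonic and 11.29, 11.09 and 10.86 on the hypertonic WT arrays, and 10.63, 10.46 and 10.38 on the isotonic and 11.13, 10.89 and 11.02 on the hypertonic KO arrays. The hypertonic arrays were the higher ones in both lines, with no overlap. Oxsr1 rose by 0.53 ± 0.13 in the KO line (limma adjusted p = 0.00713). The WT difference of 0.43 ± 0.13 missed the threshold (limma adjusted p = 0.061). That WT difference passed with the array number as a block (limma adjusted p = 0.0255), without hypertonic WT array 4 (0.54, limma adjusted p = 0.0241), with all arrays of number 4 left out (0.0147), when isotonic KO array 1 was taken as WT (0.0365), after quantile normalization (0.0304) and after centring each array on its median (0.0374). The lines did not differ in Oxsr1 beyond the threshold in either medium, with 95% intervals of -0.44 to 0.13 in isotonic and -0.35 to 0.22 in hypertonic medium.

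With Torin1, Oxsr1 read 10.60, 10.68 and 10.39 on the isotonic and 10.85, 10.81 and 10.55 on the hypertonic WT arrays. Every hypertonic array with Torin1 lay below every hypertonic array without it. This difference of -0.34 ± 0.13 missed the threshold (limma adjusted p = 0.3), and the hypertonic difference in the presence of Torin1 was 0.18 ± 0.13 (limma adjusted p = 0.58). The test of whether Torin1 altered the hypertonic difference gave -0.25 ± 0.19 (limma adjusted p = 1).

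Stk39 read 10.11, 9.95 and 9.84 on the isotonic and 9.94, 9.92 and 9.81 on the hypertonic WT arrays, groups that overlap. KO cells gave 9.71, 9.60 and 9.30 on the isotonic and 8.99, 9.02 and 8.49 on the hypertonic arrays, and these groups do not overlap. Stk39 fell by 0.70 ± 0.19 in the KO line (limma adjusted p = 0.0104). That call was lost without hypertonic KO array 4 (-0.53, limma adjusted p = 0.0551) and when isotonic KO array 1 was taken as WT (-0.61, limma adjusted p = 0.0549). In WT cells the change was smaller than its standard error, with a 95% interval of -0.48 to 0.33. With Torin1 Stk39 read 10.19, 10.14 and 9.65 on the isotonic and 10.34, 10.23 and 9.67 on the hypertonic WT arrays, again overlapping. The difference between the lines' responses was -0.62 ± 0.27, which did not pass (limma adjusted p = 0.179) but did with the array number as a block (limma adjusted p = 0.0115) and with all arrays of number 4 left out (-0.55, limma adjusted p = 0.0191). Between the lines Stk39 differed by -1.06 ± 0.19 in hypertonic medium (limma adjusted p = 0.000566). The isotonic difference was -0.43 ± 0.19 (limma adjusted p = 0.159), and it passed with the block (limma adjusted p = 0.00732) and with arrays of number 4 left out (-0.38, limma adjusted p = 0.0154).

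Lrrc8a, the obligatory subunit of the volume-regulated anion channel, read 10.55, 10.86 and 10.53 on the isotonic and 11.05, 10.93 and 10.48 on the hypertonic WT arrays. In the KO line it read 10.66, 10.58 and 10.62 on the isotonic and 11.30, 11.35 and 11.15 on the hypertonic arrays, and these 3 hypertonic arrays lay above all other 15. Lrrc8a rose by 0.65 ± 0.13 in the KO line (limma adjusted p = 0.00179). The WT difference of 0.17 ± 0.13 did not pass (limma adjusted p = 0.517), with a 95% interval of -0.11 to 0.46. The lines' responses differed by 0.47 ± 0.19, not past the threshold (limma adjusted p = 0.145) except after centring each array on its median (0.64, limma adjusted p = 0.0433). In hypertonic medium Lrrc8a was higher in the KO line by 0.45 ± 0.13 (limma adjusted p = 0.0192). That call was lost without hypertonic WT array 4 (0.28, limma adjusted p = 0.0979), hypertonic KO array 1 (0.058) or hypertonic KO array 2 (0.0712). It was lost too with the groups compared fitted alone (limma adjusted p = 0.0839). With Torin1 Lrrc8a read 10.53, 10.36 and 10.38 on the isotonic and 10.58, 10.72 and 10.42 on the hypertonic WT arrays. The isotonic arrays with Torin1 lay just below those without, at a difference of -0.23 ± 0.13, and the hypertonic ones differed by -0.25 ± 0.13 with overlap. Neither passed (limma adjusted p = 1 and 0.492).

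NFAT5 binds a DNA element with the core letters TGGAAA, and the promoters of the 8 genes were searched for these letters as a description. RefSeq promoters (GRCm38.p6) matched 7 of the 8 genes, all but Slc12a2, with 13 start sites among them. Each start's 250 upstream bases were searched for TGGAAA on both strands, counting TTTCCA as a match on the other strand. Those letters were held by 18.6% of all 32851 promoters, and 3 of the members' 13 did, namely the 1 start of Stk39 and 2 of the 6 starts of Sgk1. The windows, or the part of them lying outside the gene's own RefSeq interval, are given for the kinase gene that fell and 2 of the 3 genes that rose in the hypertonic KO line, with TGGAAA or TTTCCA in capitals.
Stk39, chr2:68472109-68472231, minus strand: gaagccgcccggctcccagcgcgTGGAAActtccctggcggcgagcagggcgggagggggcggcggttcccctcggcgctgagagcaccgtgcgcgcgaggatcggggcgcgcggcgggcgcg
Sgk1, most upstream start, chr10:21881934-21882183, plus strand: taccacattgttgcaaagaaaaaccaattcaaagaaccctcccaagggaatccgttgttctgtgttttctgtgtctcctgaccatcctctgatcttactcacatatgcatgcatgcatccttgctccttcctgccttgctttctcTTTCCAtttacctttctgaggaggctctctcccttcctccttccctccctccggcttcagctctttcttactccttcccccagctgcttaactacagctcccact
Lrrc8a, chr2:30237519-30237768, plus strand: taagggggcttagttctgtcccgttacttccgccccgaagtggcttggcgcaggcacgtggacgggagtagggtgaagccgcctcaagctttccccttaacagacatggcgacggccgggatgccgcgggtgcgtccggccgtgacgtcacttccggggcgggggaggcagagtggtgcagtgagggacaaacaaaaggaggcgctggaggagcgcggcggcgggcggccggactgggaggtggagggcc
The capitals stand at bases 24 to 29 of the Stk39 stretch and bases 146 to 151 of the Sgk1 stretch, and the Lrrc8a stretch has none. A match is a description of the letters and says nothing about binding or about the differences between the lines.

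In hypertonic KO cells 4 of the 8 genes passed, 3 of them higher and 1 lower. The count was 3 with isotonic KO array 1 counted as WT, without Stk39, and 6 with all arrays of number 4 left out, adding Slc12a7 and Wnk1. Of all genes tested 30.1% were called in this comparison, 12.9% higher and 17.2% lower. Higher genes made up 42.88% of these calls, 70.36% after centring each array on its median and 51.99% after quantile normalization. The median change was 0.35 over the 8 genes, against 0.02 over all genes tested. In hypertonic WT cells limma called 0 of the 8, with Oxsr1 and Sgk1 at an unadjusted p below 0.05, where 8.24% of genes were called, 3.94% higher and 4.3% lower, and the members' median was 0.12 against 0.02. With the array number as a block limma called 1 of the 8 in these WT cells, Oxsr1 as higher, and 15% of genes. With Torin1 the same comparison called 0 of the 8 in limma, with Sgk1 alone at an unadjusted p below 0.05, where 3.37% of genes were called, 1.65% higher and 1.72% lower. The test of whether the lines responded differently called 0 of the 8 in limma, 3 of which (Stk39, Lrrc8a and Sgk1) had an unadjusted p below 0.05, and 9.5% of genes, 3.35% higher and 6.15% lower in the KO line. With the array number as a block it called 1 of the 8, Stk39, and 14.5% of genes. Higher genes made up 35.25% of those calls, 66.95% after centring and 48.19% after quantile normalization. Centring each array on its median moved the median of all genes in the KO comparison from 0.02 to 0.20, and it kept the direction of the 4 called members, while the difference of Slc12a4, below the threshold in both fits, went from -0.11 to 0.07.

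**Figure D2:**
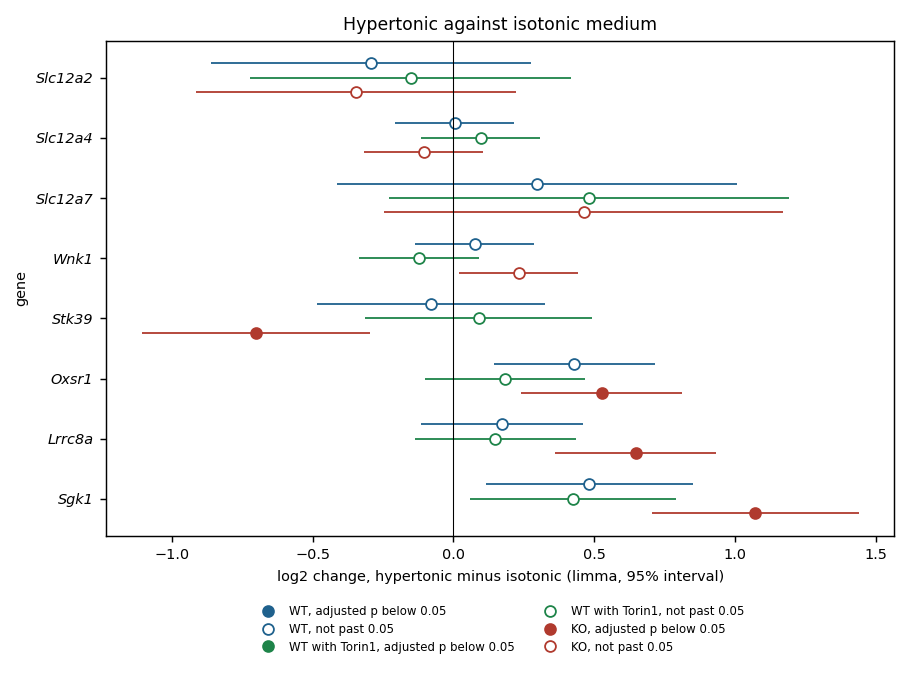
Log2 change, hypertonic minus isotonic, of the 8 genes in the WT line, the WT line with Torin1 and the KO line (points with 95% limma intervals, filled where the adjusted p is below 0.05). In this fit, without the array number as a block, filled points occur in the KO line alone, for Stk39 at -0.70 and for Oxsr1, Lrrc8a and Sgk1 between 0.53 and 1.07. With the block Oxsr1 passed in the WT line too (limma adjusted p = 0.0255).

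The importer Slc12a2, which brings sodium, potassium and chloride into the cell, was lower in the KO line in both media. It read 11.91, 11.63 and 12.29 on the isotonic and 11.40, 11.24 and 12.29 on the hypertonic WT arrays. KO cells gave 10.85, 10.75 and 10.72 on the isotonic and 10.54, 10.33 and 10.40 on the hypertonic arrays, and all 6 KO arrays lay below all 12 WT arrays. The lines differed by -1.17 ± 0.27 in isotonic medium (limma adjusted p = 0.00674) and by -1.22 ± 0.27 in hypertonic medium (0.00247). The isotonic call was lost when isotonic KO array 1 was taken as WT (-0.93, limma adjusted p = 0.242). The hypertonic difference within a line was -0.29 ± 0.27 in WT and -0.35 ± 0.27 in KO cells, and neither passed (limma adjusted p = 0.596 and 0.378). The KO arrays did not overlap between media, and a fit on those 6 arrays alone called the difference (limma adjusted p = 0.0295). The SD of Slc12a2 was 0.07 and 0.11 in the KO groups and 0.26 to 0.57 in the WT groups. With Torin1 Slc12a2 read 11.92, 11.67 and 12.20 on the isotonic and 12.02, 11.19 and 12.13 on the hypertonic WT arrays, overlapping the arrays without it.

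The exporters Slc12a4 and Slc12a7 carry potassium and chloride out of the cell. Slc12a4 read 9.96, 10.09 and 10.33 on the isotonic and 10.20, 10.11 and 10.09 on the hypertonic WT arrays, and 10.50, 10.39 and 10.40 on the isotonic and 10.25, 10.33 and 10.39 on the hypertonic KO arrays. The KO arrays lay above the WT arrays in each medium. The isotonic difference of 0.30 ± 0.10 just missed the threshold (limma adjusted p = 0.0529). It passed when the array number was a block (limma adjusted p = 0.0354), without isotonic WT array 4 (0.40, limma adjusted p = 0.013), without hypertonic Torin1 array 1 (0.0443), with the filter at the 50th percentile (0.0469) and with arrays of number 4 left out (0.42, limma adjusted p = 0.0128). The hypertonic difference of 0.19 ± 0.10 passed only after centring each array on its median (0.37, limma adjusted p = 0.0121). With Torin1 Slc12a4 ran from 9.97 to 10.22 over the 6 arrays.

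Levels of Slc12a7 followed the array number. It read 9.86, 9.91 and 10.59 on the isotonic WT arrays, 10.15, 10.03 and 11.06 on the hypertonic WT arrays, 9.89, 9.86 and 10.58 on the isotonic WT arrays with Torin1 and 10.27, 10.18 and 11.32 on the hypertonic WT arrays with Torin1. Array 4 was the highest of its group in all 4 WT groups, 0.58 above the group mean on average (0.47 to 0.73). In the KO line it read 10.76, 10.37 and 10.03 on the isotonic and 11.09, 10.80 and 10.65 on the hypertonic arrays, and there array 4 was the lowest in both groups. Within each number the hypertonic array exceeded the isotonic one in all 3 settings, by 0.30, 0.13 and 0.47 in WT cells, 0.38, 0.32 and 0.74 in WT cells with Torin1 and 0.33, 0.43 and 0.62 in KO cells. No comparison of Slc12a7 passed in all arrays. With arrays of number 4 left out, it was higher in the KO line by 0.68 in isotonic (limma adjusted p = 0.00192) and 0.85 in hypertonic medium (0.000201), and higher in hypertonic than isotonic KO cells by 0.38 (0.0415). No source used here explains the array numbers.

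Other members deviated with the array number too. In WT cells array 4 of Slc12a2 lay 0.40 above its group mean on average (0.27 to 0.65). Array 2 of Slc12a2 deviated by -0.39 on average in WT cells (-0.59 to -0.26). Stk39 on array 4 lay below its group mean in all 6 groups, by 0.24 on average in the WT and 0.29 in the KO line. Lrrc8a on array 4 did so too, deviating by -0.16 on average in the WT (-0.34 to -0.05) and -0.06 in the KO line.

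Wnk1, the kinase at the head of the pathway, read 11.33, 11.22 and 11.12 on the isotonic and 11.40, 11.39 and 11.11 on the hypertonic WT arrays. KO cells gave 11.31, 11.29 and 11.42 on the isotonic and 11.63, 11.67 and 11.42 on the hypertonic arrays, and the hypertonic KO arrays lay above the other 15, although both KO arrays of number 4 were level at 11.42. With Torin1 Wnk1 read 11.39, 11.21 and 11.34 on the isotonic and 11.20, 11.25 and 11.12 on the hypertonic WT arrays. The KO difference of 0.23 ± 0.10 did not pass (limma adjusted p = 0.0949). It passed without hypertonic KO array 4 (0.31, limma adjusted p = 0.0391), with all arrays of number 4 left out (0.35, limma adjusted p = 0.0151) and after centring each array on its median (0.40, limma adjusted p = 0.00799). In hypertonic medium Wnk1 was higher in the KO line by 0.27 ± 0.10 (limma adjusted p = 0.0468). That call lies at the threshold. With 1 array left out it held in 6 of 18 fits. The omitted array in those fits carried number 1 or 4 among the isotonic and number 1 among the hypertonic untreated WT arrays, number 2 (isotonic) or 4 (hypertonic) among those with Torin1, or number 4 among the KO arrays in hypertonic medium. It was lost in the other 12, with limma adjusted p up to 0.205 without hypertonic WT array 4. It was lost too with all arrays of number 4 left out (0.0597), no filter on dim genes (0.0522), quantile normalization (0.0922), isotonic KO array 1 counted as WT (0.0556), both probe sets averaged (0.25, limma adjusted p = 0.173) and the groups compared fitted alone (0.156).

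Wnk1 was read by a second probe set as well, with a mean of 8.18 against 11.32 for the one used, and the pair did not move together. The second read 8.75, 8.16 and 8.01 on the isotonic and 7.74, 7.71 and 7.88 on the hypertonic WT arrays. With Torin1 it read 9.15, 8.45 and 8.68 on the isotonic and 8.10, 8.04 and 7.80 on the hypertonic arrays. All hypertonic arrays lay below the isotonic ones in both WT comparisons. With this probe set in place of the other, Wnk1 fell by 0.78 in hypertonic WT cells with Torin1 (limma adjusted p = 0.0401), and the differences of -0.53 in WT and -0.22 in KO cells did not pass (0.111 and 0.447). Its difference between the lines in hypertonic medium was 0.23 (limma adjusted p = 0.405). The exons and transcripts that either probe set covers are not named in the sources used here, so statements on Wnk1 hold for 1 probe set each.

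**Figure D3:**
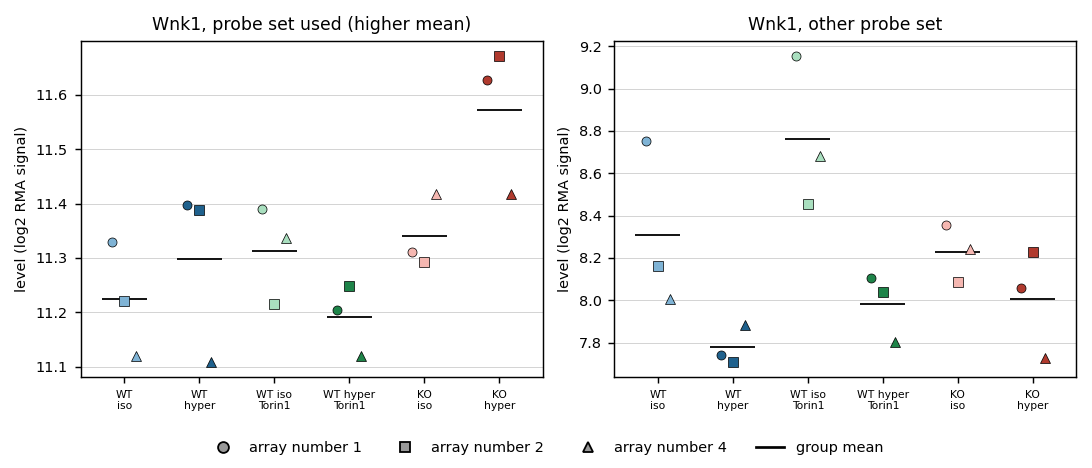
Levels (log2 RMA signal) of both Wnk1 probe sets on the 18 arrays by group, with a bar at the group mean and a marker shape for the array number. The probe set used lies between 11.11 and 11.67 and is highest in hypertonic KO cells, while the other lies between 7.71 and 9.15 and is lower in hypertonic than in isotonic WT cells.

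Ranked by their means, the 6 groups separated in several ways. Slc12a2 had the 4 WT groups on top, overlapping with their neighbours, then isotonic KO and then hypertonic KO cells with no overlap. Stk39 had the same 4 groups on top and hypertonic KO cells at the bottom with no overlap, while isotonic KO cells (9.30 to 9.71) overlapped both WT groups with Torin1 and neither without it. Slc12a4 had isotonic KO cells on top with no overlap, then hypertonic KO cells (10.25 to 10.39), which overlapped isotonic WT cells through array 4 at 10.33 and no other WT group. Wnk1 and Lrrc8a had hypertonic KO cells on top with no overlap and 5 groups below that overlapped with their neighbours. Oxsr1 had hypertonic WT and hypertonic KO cells on top, overlapping with each other and not with the 4 groups below, and all neighbouring groups of Slc12a7 overlapped.

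Between the lines 2 of the 8 genes passed in isotonic medium, both lower in the KO line, where 14.6% of genes were called, 7.78% higher and 6.84% lower. With the array number as a block the count was 4, adding Slc12a4 as higher and Stk39 as lower, where 20.9% of all genes were called. With isotonic KO array 1 counted as WT it was 0, and limma called 0 genes in all, although that array read with the other KO arrays for Thy1 and Lum. In hypertonic medium 5 of the 8 passed, 2 higher and 3 lower, where 31.9% of genes were called, 13.8% higher and 18% lower, so that higher genes made up 43.4% of calls and 72.22% after centring. With the block the same count of 5 stood against 39.1% of all genes. The members' median difference was -0.09 in isotonic and 0.06 in hypertonic medium, against 0.02 and 0.04 over all genes. Slc12a2 and Sgk1 were the members called in both media, and both were lower in the KO line. Slc12a2, Stk39 and Sgk1 kept their hypertonic call under every alternative tried. The comparisons in the 2 media share no arrays, but each genotype is the same single line in both.

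**Figure D4:**
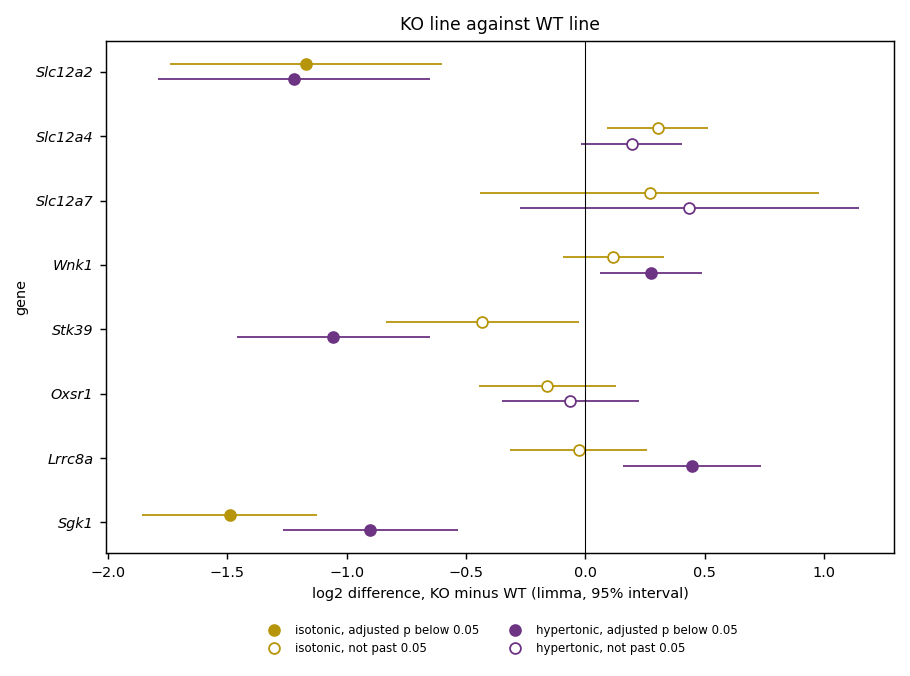
Log2 difference, KO minus WT line, of the 8 genes in isotonic and hypertonic medium (points with 95% limma intervals, filled where the adjusted p is below 0.05). Slc12a2 and Sgk1 are filled in both media between -1.49 and -0.90, and Stk39, Wnk1 and Lrrc8a in hypertonic medium alone.

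Torin1 moved 0 of the 8 genes past the limma threshold in either medium, with Sgk1 in isotonic and Oxsr1 in hypertonic medium at an unadjusted p below 0.05. Of all genes tested 0% were called in isotonic medium, with 470 genes at an unadjusted limma p below 0.05, and 0.115% in hypertonic medium, which is 18 genes. With the array number as a block limma called 0 of the 8 in either medium and 1.4% of all genes in hypertonic medium. Sgk1 was the member with the highest difference in both media, at 0.42 and 0.36 as given above. The test of whether Torin1 altered the hypertonic response called 0 of the 8 and 0% of all genes, with 0 members and 317 genes at an unadjusted limma p below 0.05. In that test the widest 95% interval among the members was -0.82 to 1.19 for Slc12a7 and the narrowest -0.21 to 0.39 for Slc12a4, so changes of this size are not resolved by 3 arrays per group.

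The wider machinery was read from 7 lists of related genes, 77 in all, of which 71 had a probe set of their own and 69 were tested. In hypertonic WT cells 3 of the 69 were higher and 3 lower, in WT cells with Torin1 0 and 1, and in KO cells 9 and 7, with medians of 0.04, 0.03 and 0.06. Of all genes tested 8.24%, 3.37% and 30.1% were called in these comparisons. With the array number as a block the list counts were 4 and 8, 2 and 1, and 11 and 10, where 15%, 7.86% and 36.3% of all genes were called. Between the lines 4 were higher and 11 lower in isotonic and 9 and 15 in hypertonic medium, where 14.6% and 31.9% of all genes were called.

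Of 8 partners of the WNK pathway 3 rose and 1 fell in hypertonic KO cells, and limma called 0 in WT cells, with 3 at an unadjusted p below 0.05. Of all genes tested 30.1% were called in KO cells, 12.9% higher and 17.2% lower, and 8.24% in WT cells. Klhl2 and Cul3, parts of the ubiquitin ligase that degrades WNK kinases, rose by 0.77 ± 0.16 and 0.46 ± 0.11 (limma adjusted p = 0.00198 and 0.00505). Cab39l, a scaffold that activates SPAK and OSR1, fell by 0.87 ± 0.16 (limma adjusted p = 0.000893). These 3 calls held under every alternative tried.

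Among 10 LRRC8 family and other anion channel genes 2 fell in hypertonic KO cells, where Lrrc8a rose and 17.2% of all genes were called as lower. Lrrc8e, a partner subunit in the same channel, fell by 0.51 ± 0.11 there (limma adjusted p = 0.00192) and by 0.40 ± 0.11 in WT cells (0.0308). The WT call was lost without any 1 of isotonic WT arrays 1, 2 and 4 and hypertonic WT arrays 1 and 2 (limma adjusted p up to 0.107). It was lost too with the groups compared fitted alone (limma adjusted p = 0.0747). The KO call was lost when isotonic KO array 1 was taken as WT (-0.46, limma adjusted p = 0.0948). The chloride-proton exchanger gene Clcn3 fell by 0.41 ± 0.12 (limma adjusted p = 0.0197). This was not called without isotonic KO array 1 (-0.27, limma adjusted p = 0.116) and after centring (-0.24, limma adjusted p = 0.111). Nor was it called with that array counted as WT (limma adjusted p = 0.127) or with the groups compared fitted alone (0.0591). Between the lines in hypertonic medium Clcn3 differed by -0.75 ± 0.12 and the acid-activated chloride channel gene Pacc1 by -1.15 ± 0.21 (limma adjusted p = 0.000269 and 0.000522), and both held under every alternative.

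Of 11 relatives, partners and substrates of SGK1, 3 rose and 3 fell in hypertonic KO cells, beside the rise of Sgk1 itself. Of all genes tested 12.9% were called as higher there and 17.2% as lower. Ndrg1, whose product is a substrate of the kinase, fell by 1.57 ± 0.27 (limma adjusted p = 0.000443), and Mlst8, a subunit shared by both mTOR complexes, rose by 0.78 ± 0.17 (limma adjusted p = 0.00244). Mlst8 rose in hypertonic WT cells too, by 0.67 ± 0.17 (limma adjusted p = 0.024), a call lost without any 1 of isotonic WT arrays 1 and 4 and hypertonic WT arrays 1 and 2 (up to 0.117). That WT call was also lost with the groups compared fitted alone (limma adjusted p = 0.0657). Sgk3, a sister kinase, differed in the KO line by -2.22 ± 0.25 (isotonic) and -3.05 ± 0.25 (hypertonic) (limma adjusted p = 1.31e-05 and 3.99e-07), the same direction as Sgk1. Rictor, the defining subunit of mTORC2, and Nedd4l, a ubiquitin ligase that SGK1 inhibits, differed in isotonic KO cells by -1.03 ± 0.16 and -1.16 ± 0.20 (limma adjusted p = 0.000294 and 0.000711). Those 3 isotonic calls were lost with isotonic KO array 1 counted as WT, at -1.37, -0.58 and -1.03 (limma adjusted p = 0.281, 0.404 and 0.133).

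Of 17 potassium and mechanosensitive cation channel genes 1 rose and 1 fell in hypertonic WT cells, and with the array number as a block 1 rose and 5 fell, adding Kcnma1, Kcnq5, Trpc1 and Piezo2 (limma adjusted p = 0.0292, 0.0488, 0.0268 and 0.0302). In that comparison 8.24% of all genes were called, and 15% with the block. Kcnj2, an inward-rectifier potassium channel, rose by 2.32 ± 0.52 (limma adjusted p = 0.0135), a call lost without hypertonic WT array 1 (1.93, limma adjusted p = 0.0783) or array 2 (2.13, 0.0626). The Kcnj2 call was also lost with the groups compared fitted alone (limma adjusted p = 0.0748). Trpv2, a cation channel gene, fell by 1.02 ± 0.17 (limma adjusted p = 0.00222), a call lost when isotonic KO array 1 was taken as WT (-0.64, limma adjusted p = 0.211). In KO cells Trpm7, a channel fused to a kinase, rose by 0.56 ± 0.10 (limma adjusted p = 0.000651). The M-type potassium channel gene Kcnq5 differed in the KO line by -2.45 ± 0.18 (isotonic) and -2.32 ± 0.18 (hypertonic) (limma adjusted p = 1.27e-07 and 2.61e-07), and the isotonic call was lost when isotonic KO array 1 was taken as WT (-1.86, limma adjusted p = 0.135).

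Of 11 sodium-proton and anion exchanger genes tested, Slc9a5 passed in both lines in hypertonic medium. It rose by 0.46 ± 0.11 in WT and 0.47 ± 0.11 in KO cells (limma adjusted p = 0.0158 and 0.00345). The WT call was lost without isotonic WT array 1 (0.38, limma adjusted p = 0.0704) or hypertonic WT array 1 (0.47, 0.0528). It was lost too with the groups compared fitted alone (limma adjusted p = 0.0889). Of 8 sodium pump subunit genes limma called 0 for the medium in either line, with 2 in WT and 1 in KO cells at an unadjusted p below 0.05, and with the array number as a block it called 1 in WT cells. Between the lines Fxyd1, a small regulator of the pump, was higher in the KO line by 1.73 ± 0.19 (isotonic) and 1.35 ± 0.19 (hypertonic) (limma adjusted p = 8.94e-06 and 7.43e-05), and the isotonic call was lost when isotonic KO array 1 was taken as WT (0.90, limma adjusted p = 0.405). Of 4 further cation-chloride cotransporter genes tested, 1 passed, Slc12a8, higher by 0.29 ± 0.10 in hypertonic KO cells (limma adjusted p = 0.0481), and that call held in 5 of the 18 fits with 1 array left out, in which the omitted array was number 2 or 4 of isotonic WT cells with Torin1, number 4 of untreated WT cells in hypertonic medium, or number 1 (isotonic) or 4 (hypertonic) of the KO line. It was lost with the groups compared fitted alone (limma adjusted p = 0.0744) and with no filter on dim genes (0.0545).

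**Figure D5:**
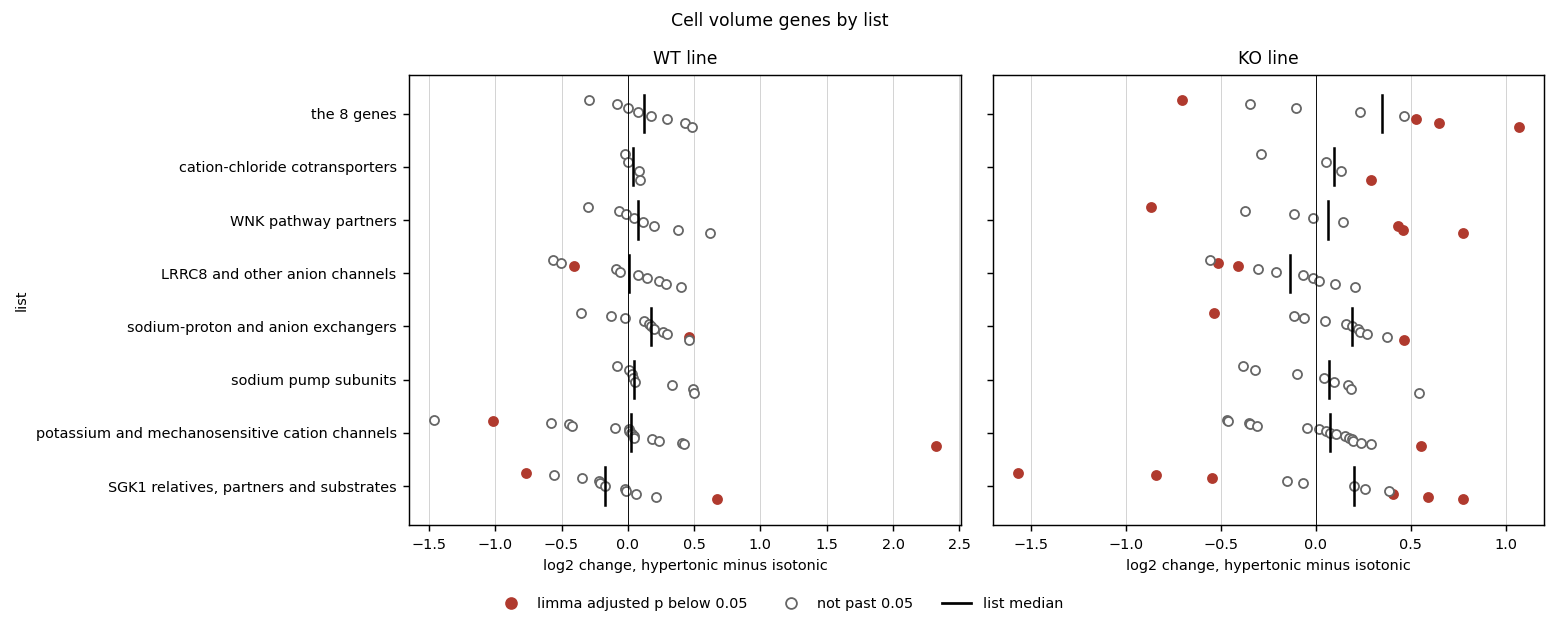
Log2 change, hypertonic minus isotonic, of every tested gene of the member set and 7 related lists in the WT line (left) and the KO line (right), each panel with its own axis. Filled points passed an adjusted p of 0.05 and bars mark list medians, with 6 of 69 list genes filled in WT and 16 of 69 in KO cells.

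The genes whose levels followed each member most closely over the 18 arrays were listed as a description. Arrays of one group and one line share their levels, so the correlation was also taken within each line, where the 6 KO arrays still fall into 2 media. Slc12a2 was matched best by Magi1, with Pearson r of 0.98 over 18 arrays, 0.93 over the 12 WT arrays and 0.67 over the 6 KO arrays. Stk39 was matched best by Gnb4 (0.95, 0.67 and 0.98) and Sgk1 by Spata5 (0.94, 0.69 and 0.92), both closer over the KO than over the WT arrays. Oxsr1 was matched best by Utp18 (0.93, 0.93 and 0.97). Lrrc8a was matched best by the splicing factor gene Puf60 (0.95, 0.86 and 0.98), Slc12a7 by Pappa (0.92, 0.93 and 0.87), Wnk1 by Ube2v1 (0.92, 0.87 and 0.92) and Slc12a4 by Sned1 (0.88, 0.66 and 0.65). Among the members, Oxsr1 and Lrrc8a had r of 0.83 over the 12 WT arrays and 0.92 over the 6 KO arrays, while Lrrc8a and Sgk1 had 0.04 and 0.94.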

How the data were processed

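Log2 RMA values of 34760 probe sets, which the authors deposited, were used without further normalization, and the submitters' processing notes name RMA and R 2.11.1. No genome build is named in the sources used here, so RefSeq tables of GRCm38.p6 served for gene names and promoter bases only. Of the probe sets 21640 name 1 gene, 1321 several and 11799 none. A gene was tested if the highest of its group means exceeded 5.86, the 30th percentile. With limma 3.58.1 (R 4.3.3) the 18 arrays were fitted together, 1 mean for each group (12 residual and 3.29 prior degrees of freedom), and 9 contrasts were adjusted by Benjamini-Hochberg over 15711 genes. The 8 members and the lists were chosen with earlier results of these data known. List genes named are at most the 3 largest called changes per list and contrast. Arrays were grouped by title.

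Same-numbered arrays of the groups compared deviated together (r from 0.156 to 0.847 over 21 pairs, and at least 0.0945 over all 45 pairs), so the number was treated as pairing and used as a block in a second fit. Among the groups compared, r was 0.263 to 0.847 within a line and 0.156 to 0.361 between the lines. Block results between the lines therefore rest on a weaker pairing. The block also gives each number a shift shared by both lines. Slc12a7 on array 4 deviated by 0.58 on average in the WT and -0.28 in the KO line, which a shared shift cannot take up. Within groups arrays correlated at 0.968 to 0.997. With 3 arrays in a group, precision is limited by their number. Alternatives changed the filter, probe set choice, normalization, prior, arrays fitted, block and the label of isotonic KO array 1, or left out single arrays. Leaving out number 4, the other Wnk1 probe set and the exchange of the KO media were chosen after seeing the data. The fit was tested on simulated data. RefSeq intervals overlap those of Mir7074 for Slc12a4, Mir706 for Wnk1, a long non-coding RNA for Stk39, and a long non-coding RNA and a pseudogene for Sgk1. Some genes of the lists are not reported here.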

Additional observations from a re-analysis of the deposited data

Results flagged for a closer look

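In the test of the difference itself, the hypertonic response of 1 member differed between the KO and the WT line with the array number as a block. Of 69 genes tested from the related lists, the response was higher in the KO line for 4 and lower for 3 unblocked. With the block these counts were 6 and 4, and 9 of the list genes called with the block are given here. Of all genes tested 9.5% were called unblocked and 14.5% with the block, and nothing particular to these genes is read from their count. For Stk39 the KO response minus the WT response was -0.62, past the threshold with the array number as a block (limma adjusted p = 0.0115) and not otherwise (0.179). Under the same block the responses of Cul3 and Sgk3 differed by 0.47 and -0.83 (limma adjusted p = 0.026 and 0.00435), and unblocked they missed the threshold (0.0762 and 0.178). The responses of Clcn3 (-0.65), Kcnj2 (-2.79), Trpv2 (1.04), Trpm7 (0.51), Ndrg1 (-1.55), Rictor (0.94) and the glucocorticoid receptor gene Nr3c1 (0.62) differed unblocked (limma adjusted p = 0.03, 0.0276, 0.012, 0.0364, 0.0197, 0.0179 and 0.0174). Leaving out single arrays ended the calls of Clcn3 (for 8 of 18 arrays), Kcnj2 (7), Trpm7 (10) and Ndrg1 (2), while those of Trpv2, Rictor and Nr3c1 held under each of these. With isotonic KO array 1 counted as WT, 5 of the 7 no longer passed, Clcn3 (-0.47), Trpv2 (0.69), Trpm7 (0.51), Ndrg1 (-1.11) and Rictor (0.48), at limma adjusted p of 0.101, 0.522, 0.0638, 0.198 and 0.643. With the groups compared fitted alone, Clcn3, Kcnj2 and Ndrg1 no longer passed (limma adjusted p = 0.066, 0.0635 and 0.0547). Clcn3 did not pass after centring either (limma adjusted p = 0.0698). The cause of these differences was not tested.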

How the results depend on the processing

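Of the 72 changes of members, 43 reached their standard error or passed in some fit, and among 1211 values of these under alternatives 6 reversed, 27 lost and 28 gained the call. The reversed ones, all below the threshold, were Slc12a4 in hypertonic KO cells after centring each array on its median (0.065), Slc12a7 between the lines in isotonic medium with isotonic KO array 1 counted as WT (-0.080), and Wnk1 with its other probe set in hypertonic KO cells (-0.22), with Torin1 in hypertonic medium (0.20) and between the lines in isotonic medium (-0.081), and with the mean of both probe sets with Torin1 in hypertonic medium (0.048). Members called in hypertonic WT cells went from 0 to 1 after quantile normalization, centring, the replicate block or isotonic KO array 1 counted as WT, to 2 without number 4, and ran from 0 to 1 with single arrays left out. With Torin1 they went from 0 to 1 without number 4 and with the other Wnk1 probe set. In hypertonic KO cells 4 became 5 after centring or with the groups compared fitted alone, 3 with isotonic KO array 1 counted as WT (Stk39 lost) and 6 without number 4 (Slc12a7 and Wnk1 gained). Between the lines in isotonic medium 2 became 4 with the replicate block, 0 with isotonic KO array 1 counted as WT and 5 without number 4. Slc12a4 there also passed with the filter at the 50th percentile. In hypertonic medium 5 became 3 with the groups compared fitted alone and ran from 3 to 5 with single arrays left out, the lowest without hypertonic WT array 4, hypertonic KO array 1 or hypertonic KO array 2. Centring added Slc12a4 to the members called there. Wnk1 alone was lost with no filter on dim genes, quantile normalization, probe sets averaged, its other probe set or isotonic KO array 1 counted as WT. Without number 4 Wnk1 was lost and Slc12a7 gained. For the difference of the lines' responses 0 became 2 after centring, 1 with the replicate block and 1 without number 4. The block changed no other member's call. The cause of these shifts was not tested. Genes called overall changed too: 1295 in hypertonic WT cells became 2360 with the block, 267 with the groups fitted alone, 3333 without number 4 and 535 without hypertonic WT array 1. The 530 called with Torin1 became 1235, 23 and 1564 in the first 3 of these and 161 without hypertonic Torin1 array 2. The 18 called for Torin1 in hypertonic medium became 220 with the block, 749 without number 4 and 0 without hypertonic WT array 1, and the 1492 for the lines' responses became 2280, 2807 and, without hypertonic WT array 2, 833. The 2298 between the lines in isotonic medium became 0 with isotonic KO array 1 counted as WT and 3809 without number 4. Of the related lists' named changes 0 reversed and 145 of 1539 values lost the call.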
